A study of Homo sapiens with 8 samples.

Results

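Expression of LSD1 and its CoREST complex partners was followed in Kyse510 cells, an established human esophageal squamous cell carcinoma (ESCC) line, in which LSD1 or the histone methyltransferase G9a had been inhibited or silenced. The set holds 9 of the 34164 genes listed in either deposited table. Its members were taken by gene name and not by their values, although the set was chosen with earlier results of these data known. They are the 2 demethylase genes KDM1A (which encodes LSD1) and KDM1B, the 3 scaffold genes RCOR1, RCOR2 and RCOR3, the 2 deacetylase genes HDAC1 and HDAC2, and the accessory subunit genes PHF21A and HMG20B. RNA was sequenced in 8 libraries, 1 for each condition. For the inhibitors, the cells were given vehicle (DMSO), 7 µM SP2509 (an LSD1 inhibitor), 7 µM UNC0642 (a G9a inhibitor), or both compounds, for 2 days. The dose within the combination is not given separately. For the knockdowns, lines with a Dox-inducible shRNA against LSD1 (shLSD1) or G9a (shG9a) were selected with puromycin for 14 days, and each line was then left without doxycycline (-Dox) or given doxycycline for 2 days (+Dox). The sample labels give the same line without doxycycline as each control and were followed here, whereas a legend in the study names a non-silencing shRNA. If the latter were the control, each knockdown ratio would compare different constructs. Both lines share the parental cells and the selection, each line was derived once, and a library of cells given doxycycline without a hairpin against LSD1 or G9a was not analysed here. Effects of doxycycline and of the hairpin therefore cannot be told apart.

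LSD1 is a flavin-dependent amine oxidase that removes mono- and dimethyl marks from lysine 4 of histone H3. On nucleosomes it works through a CoREST scaffold (RCOR1, RCOR2 or RCOR3), which binds the demethylase on one side and a deacetylase (HDAC1 or HDAC2) on the other, so that acetyl and methyl marks are taken off together. The complex is known for repressing neuronal genes in other tissues through the factor REST and for serving as a corepressor of SNAIL-type zinc finger proteins, whose N-terminal SNAG domain docks on LSD1. KDM1B (LSD2) is the second flavin-dependent demethylase and works outside CoREST. PHF21A (BHC80) reads the unmethylated lysine, and HMG20B (BRAF35) is a DNA-binding subunit.

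The hairpins fix which transcript was targeted, and they are shown because KDM1A is both a member and a target. The labels do not name the construct in each line. The study's text says that its inducible lines were made from shLSD1-1 and shG9a-2, and the sense strands of those hairpins in its supplement are printed 5′ to 3′ with the bases that pair with the seed (bases 2 to 8) of the processed guide in capitals, if the guide starts at the first base of the antisense arm.
shLSD1 target in KDM1A: gcctagacattaaACTGAATa
shLSD1 guide: uAUUCAGUuuaaugucuaggc
shG9a target in EHMT2: gctccaggaatttAACAAGAt
shG9a guide: aUCUUGUUaaauuccuggagc
The shLSD1 target lies at chr1:23077307-23077327 (GRCh38, plus strand), in the coding part of exon 16 of the 21 exons of the reference (MANE Select) transcript of KDM1A, at bases 1943 to 1963 of 3085. It is held by 30 of the 36 annotated KDM1A transcripts and by no transcript of another gene. The shG9a target lies at chr6:31882978-31882998 (minus strand), in the coding part of exon 24 of 28 of EHMT2, the gene for G9a, and is held by 8 of its 12 transcripts. No other member came closer to either target than 16 of 21 matching bases, which was HDAC2 for the shLSD1 hairpin. The 7 letters ACTGAAT, which match the shLSD1 seed, stand once in the reference transcript of RCOR1 and at 3 places in that of HDAC2, and in none of KDM1B, RCOR2, RCOR3, HDAC1, PHF21A or HMG20B. At least 1 such match is present in 23.1% of 19676 protein-coding genes, counted in the longest coding transcript of each gene. Members were counted in their reference transcripts, so that share and the member counts are not on an equal footing. The letters AACAAGA, which match the shG9a seed, stand once each in RCOR2, RCOR3 and PHF21A and in no other member. Of all genes, 33.1% hold them in their longest coding transcript. A match of letters is a description of these transcripts and no evidence of binding.

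**Figure D1:**
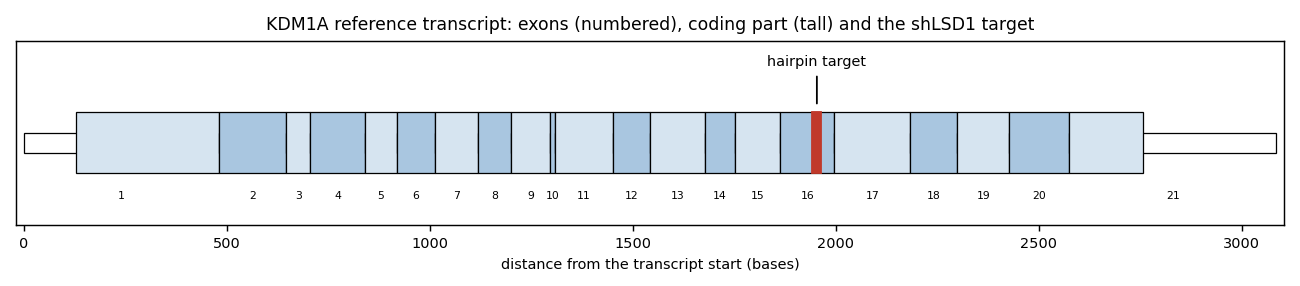
The KDM1A reference transcript drawn to scale, with the distance from its start in bases on the x axis, exons as numbered boxes and the coding part as the taller boxes. The target of the shLSD1 hairpin (red) lies in exon 16, within the coding part.

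Levels are given as FPKM, fragment counts divided by gene length and library size, as the authors deposited them. Each treated library was set against its own control, which makes 5 comparisons, and the 3 inhibitor comparisons share the vehicle library. A gene was called higher or lower when FPKM + 1 differed by at least 1.3-fold and at least 1 of the 2 libraries reached 1 FPKM. With 1 library per condition no test of a condition is possible. The 95% intervals beside ratios of FPKM are exact intervals of the read counts recovered from the FPKM values, cover counting error only, and compare these libraries and not the conditions. The libraries held between 15662035 and 17889466 counted fragments. All 9 members reached 1 FPKM in all 8 libraries, so none was lost to the filter, and their lowest count was 116 fragments. The cells carried the squamous identity the label implies, with 7 of 10 squamous epithelial markers at 1 FPKM or more in all 8 libraries. The summed level of the 10 markers ranged from 789 to 4982 FPKM, and 1 keratin, KRT17, set much of that range. Without KRT17 the sum was 784 FPKM in vehicle, 1266 with SP2509, 866 with UNC0642 and 932 with both, and 474 and 523 in shLSD1 and 473 and 1034 in shG9a without and with Dox. Single markers went either way, with SOX2 at 0.313 FPKM with SP2509 against 18.3 in vehicle, and higher with Dox in both lines. The markers PTPRC (haematopoietic), PECAM1 (endothelial) and DCN (fibroblast) stayed under 1 FPKM in all 8. CDH5 (endothelial) and COL1A1 (fibroblast) exceeded 1 FPKM in all 8. CD14 (haematopoietic) exceeded 1 FPKM only in shLSD1 +Dox, VWF (endothelial) only in shG9a +Dox, and COL3A1 (fibroblast) only with SP2509. The sums of the 4 haematopoietic, 3 endothelial and 4 fibroblast markers were at most 2.73, 14.5 and 6.74 FPKM, and the part of any of these markers in the results was not tested. In these bulk samples, fewer cells with a transcript and less transcript per cell cannot be told apart.

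Of the 45 combinations of member and comparison, 17 (37.8%) were called, and each of the 9 members was called at least once. All tested genes were called in either direction at 60.9% with SP2509, 35.1% with UNC0642, 63.2% with both, 37.1% in shLSD1 and 50.5% in shG9a. KDM1A fell most, in the shLSD1 line. HDAC1 and HDAC2 were close to 2-fold lower with SP2509 alone and near the vehicle level with both inhibitors. HMG20B was higher with SP2509 and with the combination, and lower with doxycycline in both lines. RCOR2 was about 3-fold lower with doxycycline in both lines. UNC0642 alone gave no call among the members.

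**Figure D2:**
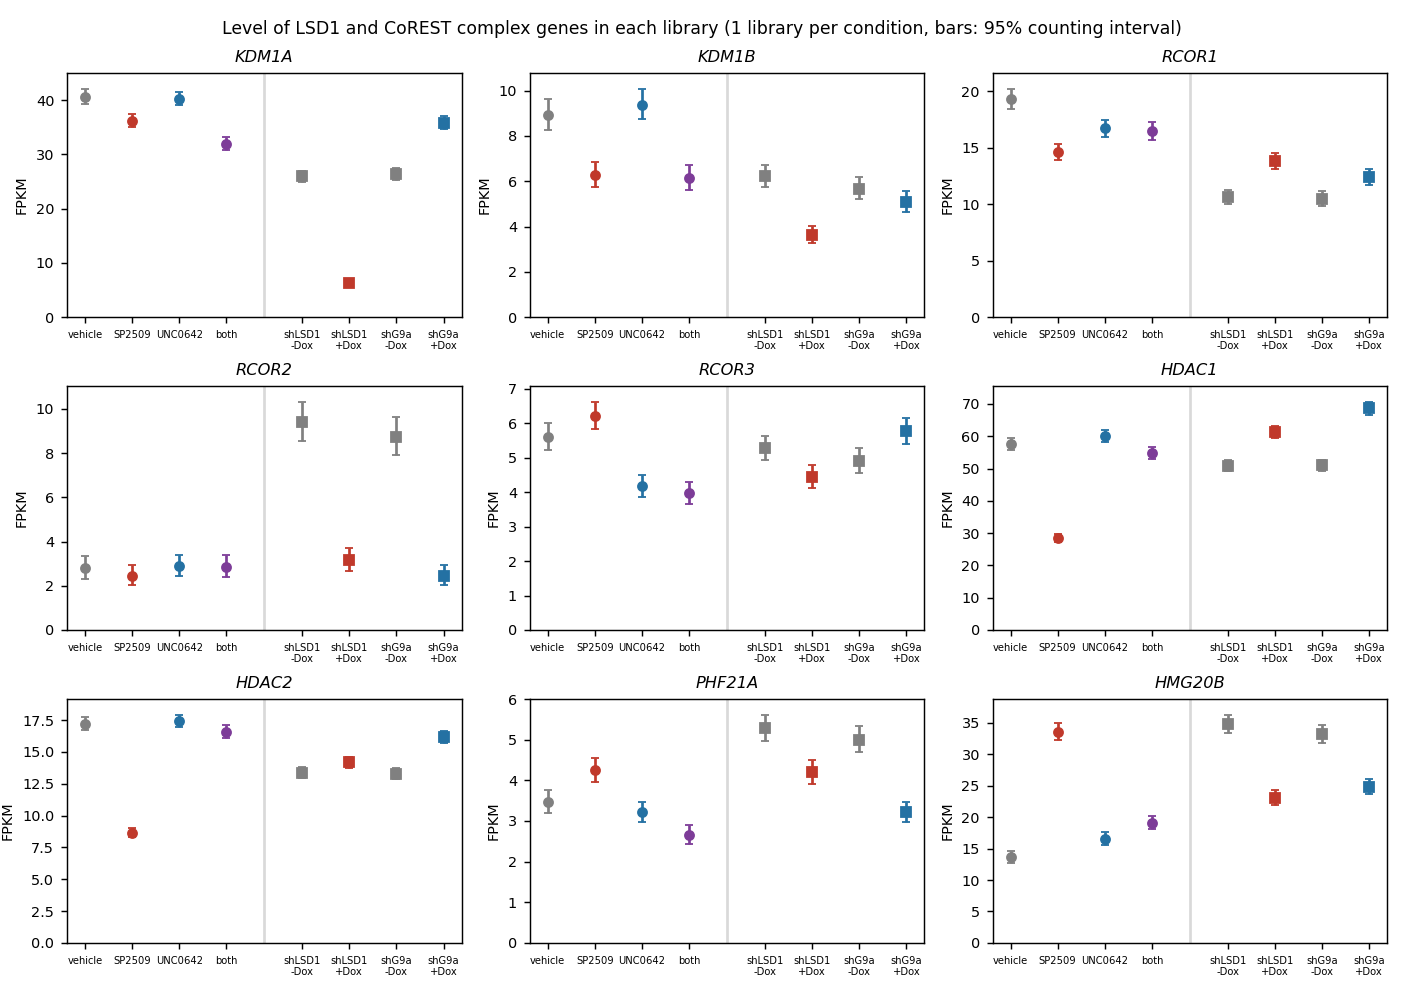
FPKM (y axis, from 0, a scale of its own in each panel) of the 9 genes in the 8 libraries (x axis), 1 point per library with its 95% counting interval. Circles are the inhibitor libraries, squares the knockdown libraries, grey the controls, red the LSD1 arm, blue the G9a arm and purple both inhibitors. KDM1A stands lowest in the shLSD1 library with Dox, at 6.29 FPKM, and HDAC1 and HDAC2 stand lowest with SP2509, at 28.4 and 8.65 FPKM.

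KDM1A was measured at 40.7 FPKM in the vehicle library, 36.2 with SP2509, 40.3 with UNC0642 and 32.0 with both inhibitors. In the knockdown lines it stood at 26.0 FPKM in shLSD1 -Dox, 6.29 in shLSD1 +Dox, 26.4 in shG9a -Dox and 35.8 in shG9a +Dox. The shLSD1 library with Dox was thus far below the other 7, and the 2 uninduced lines were close to each other. In the shLSD1 line KDM1A with Dox was at 0.242 of its level without Dox (0.221 to 0.265, from 599 and 2509 reads). Only 0.601% of the 12970 genes tested in that comparison had a lower fold change. In the shG9a line KDM1A was called in the opposite direction, with a ratio of 1.36 (1.29 to 1.43) and 71.0% of tested genes below it. That call was lost when ratios were centred on the median gene or scaled by the upper quartile. With SP2509 KDM1A was at 0.890 of vehicle (0.849 to 0.933), and with the combination at 0.787 (0.749 to 0.827). Both intervals lay below 1, and neither ratio passed the threshold. EHMT2, the target of the other hairpin, fell to 0.607 of its uninduced level (0.547 to 0.673) in the shG9a line. It went from 7.85 to 4.76 FPKM there, and 11.7% of tested genes had a lower fold change. In the shLSD1 line EHMT2 was at 7.998 and 7.97 FPKM without and with Dox. With both inhibitors EHMT2 was at 5.38 FPKM, against 11.1 in vehicle, 10.2 with SP2509 and 10.3 with UNC0642. EHMT1, which encodes the partner methyltransferase GLP, was at 2.67 FPKM without and 3.79 with Dox in the shG9a line.

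KDM1B, the second demethylase, was at 8.92 FPKM in vehicle, 6.28 with SP2509, 9.38 with UNC0642 and 6.14 with both. It was at 6.22 FPKM in shLSD1 -Dox, 3.64 in shLSD1 +Dox, 5.67 in shG9a -Dox and 5.10 in shG9a +Dox. The treated library was the lower one in every comparison that involved LSD1, and also in the shG9a comparison. The ratio was 0.704 (0.626 to 0.792) with SP2509, 0.688 (0.610 to 0.776) with the combination and 0.586 (0.513 to 0.668) in the shLSD1 line, and all were called. Of the genes tested, 36.3% had a lower fold change with SP2509, 27.4% with the combination and 6.66% in the shLSD1 line. Ratios in the UNC0642 and shG9a comparisons, 1.05 (0.946 to 1.17) and 0.899 (0.793 to 1.02), had intervals that include 1. The SP2509 call on KDM1B was lost after centring and after upper-quartile scaling, and centring brought its log2 fold change from -0.45 to -0.35. Whether KDM1B differs between the LSD1 and the G9a arm was not tested.

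Among the scaffolds, RCOR1 was the most abundant, at 19.3 FPKM in vehicle, 14.6 with SP2509, 16.7 with UNC0642 and 16.5 with both inhibitors. In the knockdown lines RCOR1 was at 10.6 FPKM in shLSD1 -Dox, 13.8 in shLSD1 +Dox, 10.5 in shG9a -Dox and 12.4 in shG9a +Dox. The treated library was lower in the 3 inhibitor comparisons and higher in the 2 knockdown comparisons. Of these, only SP2509 gave a call for RCOR1, at a ratio of 0.756 (0.707 to 0.809) just past the threshold and lost after centring and after upper-quartile scaling. The shLSD1 ratio of 1.296 (1.20 to 1.40) fell just short on the FPKM + 1 scale.

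RCOR2 is the scaffold best known from stem and neural cells, and it was the lowest of the 3 in the inhibitor libraries. It stood at 2.80 FPKM in vehicle, 2.46 with SP2509, 2.88 with UNC0642 and 2.86 with both. All 4 inhibitor libraries overlapped within counting error, and the intervals of the 3 ratios include 1. In the knockdown lines RCOR2 was at 9.40 FPKM in shLSD1 -Dox and 3.15 in shLSD1 +Dox, and at 8.74 FPKM in shG9a -Dox and 2.45 in shG9a +Dox. Only the uninduced lines were high. The ratio of induced to uninduced cells was 0.335 (0.277 to 0.404) for shLSD1 and 0.280 (0.225 to 0.345) for shG9a, with 1.70% and 2.44% of tested genes lower. RCOR2 was the only member past a 2-fold change in both lines.

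RCOR3, the third scaffold, was at 5.60 FPKM in vehicle, 6.21 with SP2509, 4.17 with UNC0642 and 3.97 with both. It was at 5.27 and 4.44 FPKM in the shLSD1 line without and with Dox and at 4.91 and 5.77 in the shG9a line. The 2 libraries that received UNC0642 were the lowest. RCOR3 was called lower with the combination, at a ratio of 0.708 (0.636 to 0.788). With UNC0642 alone the ratio was 0.744 (0.670 to 0.825), which passed the threshold only when the pseudocount was 0.1 in place of 1.

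HDAC1, one of the 2 interchangeable catalytic deacetylases of the complex, was at 57.7 FPKM in vehicle, 28.4 with SP2509, 60.0 with UNC0642 and 54.9 with both inhibitors. HDAC2, the other, was at 17.2 FPKM in vehicle, 8.65 with SP2509, 17.4 with UNC0642 and 16.6 with both. In both genes the SP2509 library stood alone below the other 3. The SP2509 ratios were 0.493 (0.467 to 0.521) for HDAC1 and 0.503 (0.478 to 0.529) for HDAC2, so that their intervals overlapped, and 13.1% and 15.3% of tested genes had a lower fold change. With the combination the ratios to vehicle were 0.951 (0.908 to 0.996) and 0.964 (0.924 to 1.01). Set directly against SP2509, a comparison added after the values were seen, the combination was higher by 1.93-fold (1.83 to 2.04) for HDAC1 and 1.92-fold (1.82 to 2.02) for HDAC2. In that comparison RCOR3, PHF21A and HMG20B were called lower, which makes 5 of 9 members called against 66.6% of all genes.

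The same pair was higher with doxycycline in the genetic arm, and to a smaller extent. HDAC1 was at 50.8 FPKM in shLSD1 -Dox, 61.3 in shLSD1 +Dox, 50.9 in shG9a -Dox and 68.6 in shG9a +Dox. HDAC2 was at 13.3 and 14.2 FPKM in the shLSD1 line without and with Dox, and at 13.3 and 16.1 in the shG9a line. The uninduced lines were level with each other. Only HDAC1 in the shG9a line was called, at 1.35-fold (1.29 to 1.41), with 70.6% of tested genes below it. The call was lost after centring and after upper-quartile scaling. With centring the log2 fold change of HDAC2 in the shLSD1 line turned from 0.08 to -0.03. HDAC1 in the shLSD1 line was at 1.21-fold (1.15 to 1.26), which was not called and shrank from a log2 fold change of 0.27 to 0.16 after centring and 0.13 after upper-quartile scaling.

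The promoters of HDAC1 and HDAC2 are shown because both genes moved by nearly the same factor with SP2509. They run from 250 bases before to 50 bases after the start (RefSeq, GRCh38.p14), at chr1:32291833-32292132 on the plus strand and chr6:113971099-113971398 on the minus strand. Capitals mark the GC box GGGCGG and the CCAAT box CCAAT on either strand.
HDAC1: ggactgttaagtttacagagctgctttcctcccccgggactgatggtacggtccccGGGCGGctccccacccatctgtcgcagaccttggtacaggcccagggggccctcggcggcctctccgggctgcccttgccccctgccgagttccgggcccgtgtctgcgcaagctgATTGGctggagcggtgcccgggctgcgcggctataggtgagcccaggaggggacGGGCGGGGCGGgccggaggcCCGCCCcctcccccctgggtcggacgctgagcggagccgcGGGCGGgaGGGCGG
HDAC2: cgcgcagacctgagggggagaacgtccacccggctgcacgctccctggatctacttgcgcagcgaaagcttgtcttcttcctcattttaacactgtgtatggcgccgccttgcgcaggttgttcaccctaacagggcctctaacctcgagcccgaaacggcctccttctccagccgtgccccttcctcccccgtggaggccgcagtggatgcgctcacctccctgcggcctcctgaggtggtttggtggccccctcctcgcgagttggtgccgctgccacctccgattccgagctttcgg
The 2 windows differed in these letters, with GC boxes and a CCAAT box in HDAC1 and none in HDAC2. GC content was 73.7% and 64.0%, against a median of 58.7% over 35116 promoters. Promoters were found for 8 of the 9 members, all but RCOR2. Some genes have several windows, and of the 11 windows of members 9 held a GC box, against 45.0% of all windows. By gene, 7 members held one. GC content of the 11 windows ran from 58.0% to 82.7%, and the GC box share was not adjusted for it. A CCAAT box was in 4 of the 11, those of HDAC1, HMG20B, RCOR1 and RCOR3, against 34.6%. The TATA box TATAAA, the E-box CACGTG and the CRE TGACGTCA, also searched on both strands, were in none of the members' windows and in 11.5%, 7.26% and 1.85% of promoters.

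PHF21A was the lowest or second lowest member in the inhibitor libraries, at 3.46 FPKM in vehicle, 4.25 with SP2509, 3.21 with UNC0642 and 2.65 with both. In the lines it was at 5.28 and 4.20 FPKM without and with Dox for shLSD1, and at 5.003 and 3.21 for shG9a. It was lower with doxycycline in both lines and called in shG9a only, at a ratio of 0.643 (0.580 to 0.712) against 0.795 (0.724 to 0.871) in shLSD1, where it was called only after centring or upper-quartile scaling. The difference between the lines was not tested. With SP2509 the ratio was 1.23 (1.10 to 1.36), short of the threshold.

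HMG20B had the widest spread of calls. It stood at 13.6 FPKM in vehicle, 33.6 with SP2509, 16.6 with UNC0642 and 19.1 with both inhibitors. In the lines it was at 34.9 FPKM in shLSD1 -Dox, 23.1 in shLSD1 +Dox, 33.2 in shG9a -Dox and 24.9 in shG9a +Dox. The 3 libraries near 34 FPKM were SP2509 and the 2 uninduced lines. The ratio was 2.47 (2.28 to 2.68) with SP2509 and 1.41 (1.29 to 1.54) with the combination, with 94.6% and 71.9% of tested genes below it. It was 0.662 (0.621 to 0.706) in shLSD1 and 0.747 (0.701 to 0.797) in shG9a, with 7.67% and 16.6% of tested genes lower, and these 4 were called. HMG20B shares 369 of the 3857 bases of its exons with MFSD12, a gene on the opposite strand. The strand setting of the counting is not given in the sources used here, so the level of HMG20B is uncertain by that overlap. MFSD12 was at 5.24 FPKM in vehicle, 19.9 with SP2509, 11.2 with UNC0642 and 20.2 with both, and at 12.0 and 7.34 in shLSD1 and 12.8 and 6.37 in shG9a without and with Dox. It was called in the direction of HMG20B's difference in all 5 comparisons, and its part in HMG20B's values was not tested.

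**Figure D3:**
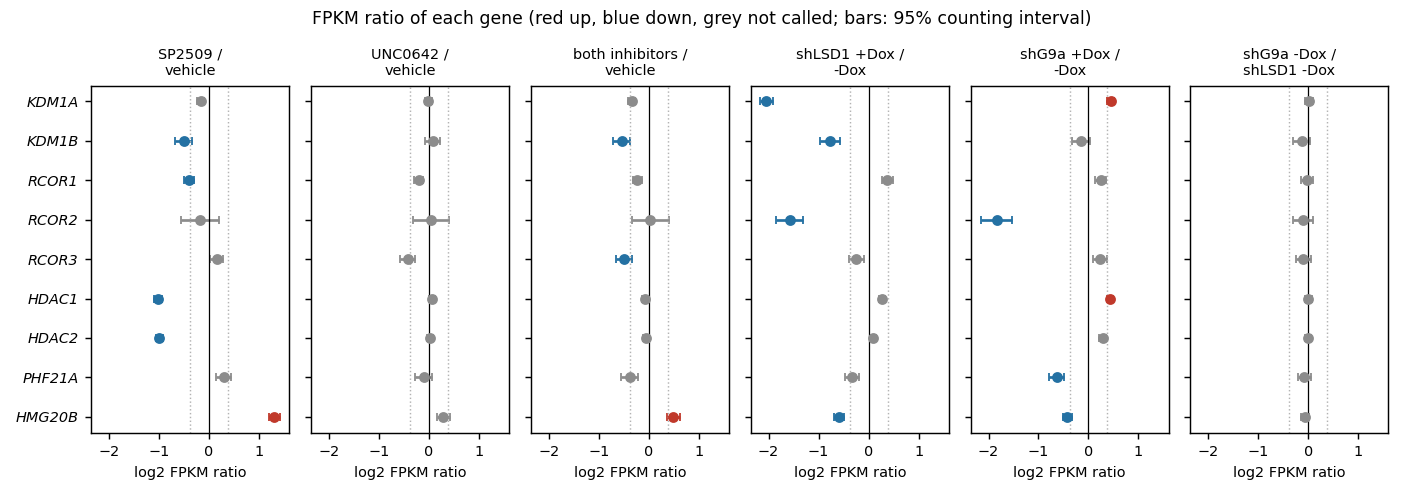
Log2 ratio of FPKM (x axis) for the 9 genes (y axis) in the 5 comparisons and between the 2 uninduced lines, with 95% counting intervals. Red is called higher, blue called lower, grey not called, and the dotted lines mark a plain 1.3-fold ratio, while calls were made on FPKM + 1. The SP2509 panel holds HDAC1 and HDAC2 together near 2-fold lower, and the panel of uninduced lines holds all 9 genes between the dotted lines.

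The counts of called members are given beside the share of all tested genes past the same fold. With SP2509, 1 of 9 members was called higher, against 21.0% of 13342 genes, and 4 were called lower, against 39.9%. UNC0642 gave 0 of 9 in either direction, against 35.1% of 13244 genes. The combination gave 1 higher, against 31.4% of 13907 genes, and 2 lower, against 31.7%. With shLSD1, 0 members were called higher, against 24.8% of 12970 genes, and 4 were called lower, against 12.3%, one of them the targeted gene itself. With shG9a, 2 were called higher, against 32.9% of 13080 genes, and 3 lower, against 17.6%. The median log2 fold change of the members and of all genes tested was -0.16 and -0.21 for SP2509, 0.02 and -0.01 for UNC0642, and -0.22 and -0.02 for the combination. It was -0.27 and 0.13 for shLSD1, and 0.19 and 0.18 for shG9a. In genes with at least 5 FPKM the median gene lay 0.11 and 0.14 higher with Dox in the 2 lines. Centred on it, 17.03% of genes were called higher and 16.6% lower in shLSD1, with 0 and 5 members, and 22.5% in each direction in shG9a, with 0 and 3 members.

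The 2 uninduced lines carry different hairpins and were compared with each other without doxycycline, in a comparison added after the values were seen. None of the 9 members was called between them, against 7.55% of 12449 genes, and the intervals of all 9 ratios include 1. Their log2 fold changes lay between -0.11 and 0.02. Differences between the uninduced lines and vehicle were larger. RCOR2 was 3.36-fold and 3.12-fold higher in the 2 lines than in vehicle, HMG20B 2.56-fold and 2.44-fold higher, and PHF21A 1.52-fold and 1.44-fold higher. KDM1A was at 0.639 and 0.649 of vehicle and RCOR1 at 0.552 and 0.543. The 2 arms come from tables that were normalized separately and partly with other gene models. The length of KDM1B recovered from its FPKM values was 4595 bases in one and 5596 in the other. Levels across the tables are therefore set side by side without a call.

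Within libraries HDAC1 was the highest member in 7 of 8. With SP2509 the order was KDM1A, HMG20B, HDAC1, RCOR1, HDAC2, KDM1B, RCOR3, PHF21A and RCOR2, and the first 2 did not differ beyond counting error, nor did KDM1B and RCOR3. In vehicle the order was HDAC1, KDM1A, RCOR1, HDAC2, HMG20B, KDM1B, RCOR3, PHF21A and RCOR2, and only PHF21A and RCOR2 overlapped. In shLSD1 +Dox KDM1A stood behind HDAC1, HMG20B, HDAC2 and RCOR1. Per-length levels depend on the gene model. HDAC2 had 4168 fragments in vehicle and HDAC1 3580, and the lower FPKM of HDAC2 follows from a counted length of 15461 bases against 3963. With the reference transcript lengths of 9737 and 2118 bases in their place, HDAC1 was still above HDAC2 in all 8 libraries, and HMG20B passed KDM1A with SP2509.

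Other proteins found with CoREST were described through a list of 7 genes, all of which passed the filter. With SP2509, 4 were called lower and 0 higher, against 39.9% and 21.0% of all genes. CTBP2, a corepressor that binds the complex, was at 6.55 FPKM against 12.0 in vehicle, GSE1 at 7.99 against 12.8, CTBP1 at 2.45 against 3.93, and RREB1, a zinc finger factor, at 2.76 against 3.91. With both inhibitors 5 were called lower and 0 higher, against 31.7% and 31.4% of all genes. ZMYM3 was at 4.66 FPKM against 9.59 in vehicle and ZMYM2 at 5.49 against 9.17, beside CTBP2 at 6.69, CTBP1 at 2.57 and RREB1 at 2.48. UNC0642 alone gave 1 call, CTBP2 lower at 8.87 FPKM, against 18.2% of all genes higher and 16.9% lower. In shLSD1, ZNF217 was called higher, from 12.7 to 17.4 FPKM, and ZMYM2 lower, from 7.66 to 5.23. That is 1 higher and 1 lower of 7, against 24.8% and 12.3% of all genes. In shG9a, ZMYM2, from 7.44 to 5.05 FPKM, and CTBP2, from 9.88 to 5.49, were called lower. That is 0 higher and 2 lower of 7, against 32.9% and 17.6% of all genes. CTBP2 was thus called lower in all comparisons but shLSD1, where it was at 10.3 and 8.65 FPKM.

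Factors that bring LSD1 to DNA, the SNAG-type and REST recruiters, were mostly off, with 2 to 4 of 10 at 1 FPKM or more in a comparison. SNAI2 (SLUG) was at 67.9 FPKM with SP2509 against 12.9 in vehicle, a ratio of 5.28 (4.78 to 5.85). In shLSD1 it was at 4.77 FPKM with and 15.4 without Dox, a ratio of 0.310 (0.270 to 0.354), and in shG9a at 7.27 and 12.4. SNAI2 was thus above its control with SP2509 and below it with Dox in both lines, with a ratio of 0.584 (0.517 to 0.660) in shG9a. These differences were not tested, and effects of doxycycline and of the hairpin cannot be told apart. SNAI1 (SNAIL) was at 14.5 FPKM with both inhibitors and 0.454 in vehicle, with 414 and 12 reads. REST itself was at 5.21 FPKM with SP2509 against 8.29, and at 7.10 with against 5.20 without Dox in shG9a. Of 20 neuronal genes known to be repressed by REST, only 3 or 4 passed the filter in a comparison. SYT1, a synaptic vesicle calcium sensor, was called higher with SP2509, at 4.03 FPKM against 2.31, and lower with both inhibitors, at 0.903. VGF, a neuropeptide precursor, was called higher with UNC0642 and with both inhibitors, at 1.32 and 3.07 FPKM against 0.331. It had 64 and 140 reads there and 14 in vehicle. Like SNAI1, VGF was under 1 FPKM in vehicle and passed the filter only through the treated library. In shLSD1 0 of 4 were called, against 37.1% of all genes in either direction. In shG9a 1 of 4 was called, against 50.5%, with L1CAM, an adhesion molecule, lower at 12.3 against 21.3. The shares of all genes called were 60.9% with SP2509, 35.1% with UNC0642 and 63.2% with both. So few recruiters and neuronal genes passed the filter that these counts cannot describe either list as a set.

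HDAC1 and HDAC2 also serve in the NuRD and SIN3 complexes, so these were counted as well. Of 12 other NuRD genes that passed the filter, 7 were called lower with SP2509 and 0 higher, against 39.9% and 21.0% of all genes, with CHD4, the remodelling ATPase, at 18.7 FPKM against 56.2. With UNC0642 2 were lower, and with both inhibitors 4 were lower and 1 higher, MTA3 being at 3.87 and 1.66 FPKM against 6.29, and MBD3 at 5.05 against 3.62 with both. In shG9a 7 were higher and 0 lower, against 32.9% and 17.6% of all genes, led by MTA2 from 28.6 to 51.6 FPKM, and in shLSD1 MBD3 alone was called, from 4.40 to 6.14. Of 12 SIN3 genes, 2 were higher and 1 lower with SP2509, 0 were called with UNC0642, 6 were higher and 1 lower with both inhibitors, 1 was lower in shLSD1, and 4 were higher and 2 lower in shG9a. Over all genes, the shares called higher and lower were 21.0% and 39.9% with SP2509, 18.2% and 16.9% with UNC0642, 31.4% and 31.7% with both, 24.8% and 12.3% in shLSD1, and 32.9% and 17.6% in shG9a. SAP30, a SIN3 subunit, was at 7.94 FPKM with both inhibitors against 4.06, and at 2.97 with against 6.46 without Dox in shG9a. ING2 was at 15.2 FPKM with SP2509 against 10.6 and fell from 17.5 to 12.9 in shLSD1. SUDS3 was at 14.0 with both inhibitors against 21.2, and BRMS1L at 4.60 with SP2509 against 7.77 and at 7.14 with against 4.003 without Dox in shG9a.

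Of the other classical deacetylases, 7 or 8 of 9 passed the filter. HDAC9 was called higher with all inhibitor treatments, at 7.45 FPKM with SP2509, 3.34 with UNC0642 and 6.14 with both, against 1.29 in vehicle, and lower in shG9a, at 0.882 with against 1.89 without Dox. HDAC4 was called lower with SP2509, at 0.542 against 1.64 FPKM, and higher with Dox in both lines, from 0.851 to 1.54 in shLSD1 and from 0.990 to 1.85 in shG9a. HDAC6 was at 2.02 FPKM with both inhibitors against 3.86. In all, 2 were higher and 2 lower with SP2509, 1 higher with UNC0642, 2 higher and 3 lower with both, 1 higher in shLSD1, and 1 higher and 1 lower in shG9a. Over all genes, 21.0% were higher and 39.9% lower with SP2509, 18.2% and 16.9% with UNC0642, and 31.4% and 31.7% with both. These shares were 24.8% and 12.3% in shLSD1, and 32.9% and 17.6% in shG9a.

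The writers of the mark that LSD1 erases, the H3K4 methyltransferase complexes, had 12 genes that passed the filter. With SP2509 1 was higher and 6 lower, with UNC0642 2 lower, with both 4 higher and 2 lower, in shLSD1 3 higher, and in shG9a 5 higher and 1 lower. Over all genes the shares higher and lower were 21.0% and 39.9% with SP2509, 18.2% and 16.9% with UNC0642, and 31.4% and 31.7% with both. In the lines they were 24.8% and 12.3% in shLSD1, and 32.9% and 17.6% in shG9a. SETD1B, a catalytic subunit, was at 1.35 FPKM with SP2509, 4.62 with UNC0642 and 4.56 with both, against 7.73 in vehicle. With Dox it was higher in both lines, from 3.27 to 7.25 FPKM in shLSD1 and from 3.82 to 7.78 in shG9a. KMT2A was at 7.33 FPKM with SP2509 against 4.47, RBBP5 at 23.8 with both inhibitors against 11.0, and ASH2L at 6.48 with against 9.49 without Dox in shG9a. These lists are small, overlap in function with the members and carry no test.

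**Figure D4:**
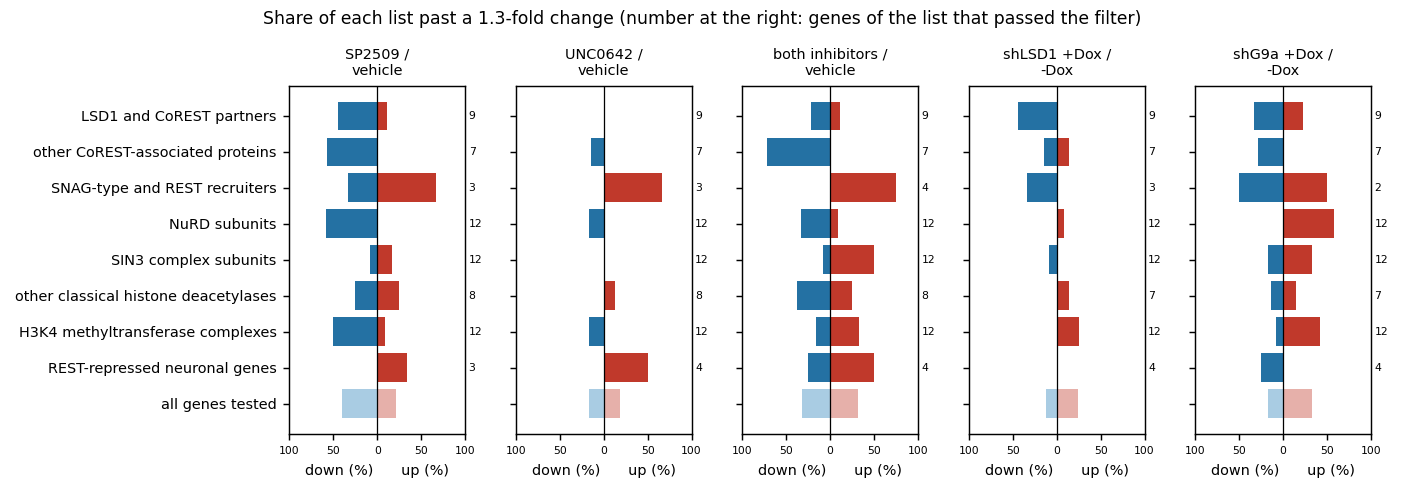
Percent of the genes of each list called higher (red, to the right) and lower (blue, to the left) in each comparison, with the number of genes that passed the filter at the right of each bar and all genes tested in pale bars at the bottom. In SP2509, 7 of 12 NuRD genes lie to the left, and in shG9a 7 of 12 lie to the right.

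The genes whose levels were most like those of KDM1A over the 8 libraries were VAMP7 (Pearson r = 0.957), PHF20 (0.949) and TOMM20 (0.939), among 9439 genes at 1 FPKM or more in all 8, on log2(FPKM + 1) centred within each table. VAMP7, a vesicle fusion protein, was at 7.20 FPKM in shLSD1 +Dox and between 16.8 and 21.5 in the other 7. Among the members KDM1B ranked highest in likeness, at place 143 with r = 0.682, and RCOR1 lowest, with r = -0.46. The 8 points share a parental line, and 1 library carried the likeness. Without shLSD1 +Dox, 0 of these 3 genes were among the 3 most like KDM1A.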

How the data were processed

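RNA of 8 Kyse510 libraries (1 per condition, paired-end reads) was analysed, with groups taken from the sample labels. The authors mapped filtered reads to the human genome (GRCh38) and deposited FPKM values in 2 tables, of 31582 and 28942 genes. The aligner, the counting tool and its strand setting are not given in the sources used here. Gene models differ between the tables: of 10004 shared genes with at least 50 reads in all 8 libraries, 1210 had another length as recovered below.

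Reads were recovered from the FPKM values. Values of 1-exon genes fall on steps that give the library total (15662035 to 17889466), and each other gene was given the smallest length at which its 4 values in a table are whole reads (all but 1 gene in each table, 96.9% to 98.6% of the totals). Fold changes used FPKM + 1, genes at 1 FPKM in at least 1 of the 2 libraries were tested, and calls needed 1.3-fold, the fold threshold of the study's methods. Intervals were Clopper-Pearson (95%). The procedure was tested on simulated data. Alternatives were a pseudocount of 0.1, no filter, a minimum of 5 FPKM, 2-fold, centring on the median gene (of those at 5 FPKM or more), upper-quartile scaling, an added exact binomial p under 0.05, and the mean of both uninduced lines as control.

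The members and the 7 gene lists were chosen with earlier results of these data known. Genes named are the members, EHMT1, EHMT2, the list of 7 CoREST-associated proteins, the called gene with the largest rise and fall of each other list in each comparison, and the 3 genes most correlated with KDM1A. A further gene of the CoREST-associated list is not reported here. MFSD12 was named after its overlap was seen, and the cell type markers come from the marker lists. Hairpins came from the study's supplement and were placed with GENCODE release 44, and promoters came from RefSeq. Python 3.11.15, pandas 2.3.3 and scipy 1.17.1 were used.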

Additional observations from a re-analysis of the deposited data

Results flagged for a closer look

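KDM1A was called in opposite directions in the 2 knockdown lines, lower with Dox in the shLSD1 line and higher with Dox in the shG9a line, and the 2 log2 fold changes differed by -2.31 (shLSD1 minus shG9a). The call in the shG9a line was lost after centring on the median gene, at a log2 fold change of 0.28. The difference was not tested, since each line has 1 library with and 1 without Dox.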

How the results depend on the processing

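A 2-fold threshold left 1 member called with SP2509 (HMG20B), 0 with the combination, 2 in shLSD1 (KDM1A and RCOR2) and 1 in shG9a (RCOR2), against 21.3%, 22.6%, 6.63% and 11.2% of all genes. Centring on the median gene and upper-quartile scaling each left 3 calls with SP2509 and 3 in shG9a, against 59.5% and 59.8% of all genes with SP2509 and 45.0% and 46.6% in shG9a. Each of these also added a call of PHF21A lower in shLSD1 (log2 fold changes of -0.38 and -0.39), and upper-quartile scaling added KDM1A as lower with the combination (-0.38). A pseudocount of 0.1 gave 1 call with UNC0642 (RCOR3). The other 28 of 37 counts of called members stayed within 1.5 times the count in the report, and no log2 fold change of a called member changed sign under these alternatives. Of 237 log2 fold changes of members, 211 moved by less than their counting error. Of 259 list counts, 198 stayed within 1.5 times. Leaving out the shLSD1 library with Dox, chosen after seeing the data, left 0 of the 3 genes most like KDM1A. No paired analysis was possible because each condition has 1 library and the labels give no replicate numbers. Depth was not the limit for the members, whose lowest count was 116 fragments, and replicates are missing.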
